A study of Rattus norvegicus with 10 samples.

Results

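This account covers the genes for cytosolic translation factors and for aminoacyl-tRNA synthetases in rat liver. Members were all probe sets assigned to exactly 1 gene whose symbol begins with Eif1 to Eif6 or Eef1 or Eef2, or is a synthetase symbol made of 1 letter or Ep, then ars, then 1 (cytosolic) or 2 (mitochondrial). The regulators Eif2ak, Eif4ebp, Eif4enif and Eef2k were left out of the families. This gave 111 of 15899 probe sets on the array and 78 of 9378 genes, namely 39 initiation factor genes, 10 elongation factor genes, 16 cytosolic and 13 mitochondrial synthetase genes. A further 7 probe sets carried a matching symbol beside another one, among them those of Eif5 and Eif3e, and were not used here. Taken by symbol, the elongation factor genes include lysine methyltransferases (Eef1akmt) and a scaffold gene of a synthetase complex (Eef1e1). The study compared livers of 5 Wistar Han rats (CRL:WI (Han)) given RG3487 by gavage at 180 mg/kg with livers of 5 rats given the same volume, 5 ml/kg, of deionized water, on 1 Affymetrix array per animal. All rats were 6 to 8 weeks old, and all livers were sampled from the left lateral lobe, 24 h after dosing per the sample labels, whereas the series text names 2 h. Cages held 5 rats each, so a cage and a treatment cannot be told apart where they coincide.

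Translation initiation brings the initiator tRNA, the small ribosomal subunit and the messenger RNA together. eIF2 carries the initiator tRNA and is recharged with GTP by eIF2B, eIF3 is the large scaffold on the small subunit, and eIF4F binds the cap of the messenger RNA. Elongation is carried by eEF1A, which brings charged tRNAs to the ribosome, by its exchange complex eEF1B, and by eEF2, which moves the ribosome along. Aminoacyl-tRNA synthetases charge each tRNA with its amino acid, with separate enzymes for the cytosol and for mitochondria in most cases. The liver makes the plasma proteins and relies on this machinery heavily.

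Most members were higher with RG3487 and none were called lower. After the dimmest 25% of probe sets were left out, 94 member probe sets and 70 member genes remained, each gene being read by the brightest of its remaining probe sets. By limma at a Benjamini-Hochberg adjusted p under 0.05, 46 of the 70 genes rose and 0 fell. Of all 7727 genes tested, 29.7% were called, 22.3% higher and 7.40% lower. Initiation factors rose in 27 of 38 genes, elongation factor genes in 4 of 8, cytosolic synthetases in 11 of 16 and mitochondrial synthetases in 4 of 8. The change was above 0 in 63 of the 70, against 66.2% of all genes. Changes were small: the median log2 change was 0.28 for initiation factors, 0.28 for elongation factors, 0.34 for cytosolic and 0.23 for mitochondrial synthetases, while it was 0.09 over all genes. Only Eif3c, Eif3b, Eif2s1, Iars1 and Yars1 changed by at least 0.50, 5 of 70 members, where 7.43% of all genes did. The 5 RG3487 livers all lay above the 5 vehicle livers in 27 of the 70 members, namely 18 initiation factors, 2 elongation factors, 4 cytosolic and 3 mitochondrial synthetases, against 15.5% of all genes. All RG3487 livers lay below the vehicle livers in 0 members, against 4.78% of all genes. Calls were more frequent among bright genes. Above the median signal of all genes, 29.5% of genes were called higher and so were 39 of 54 members, and below it the numbers were 15.1% and 7 of 16.

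**Figure D1:**
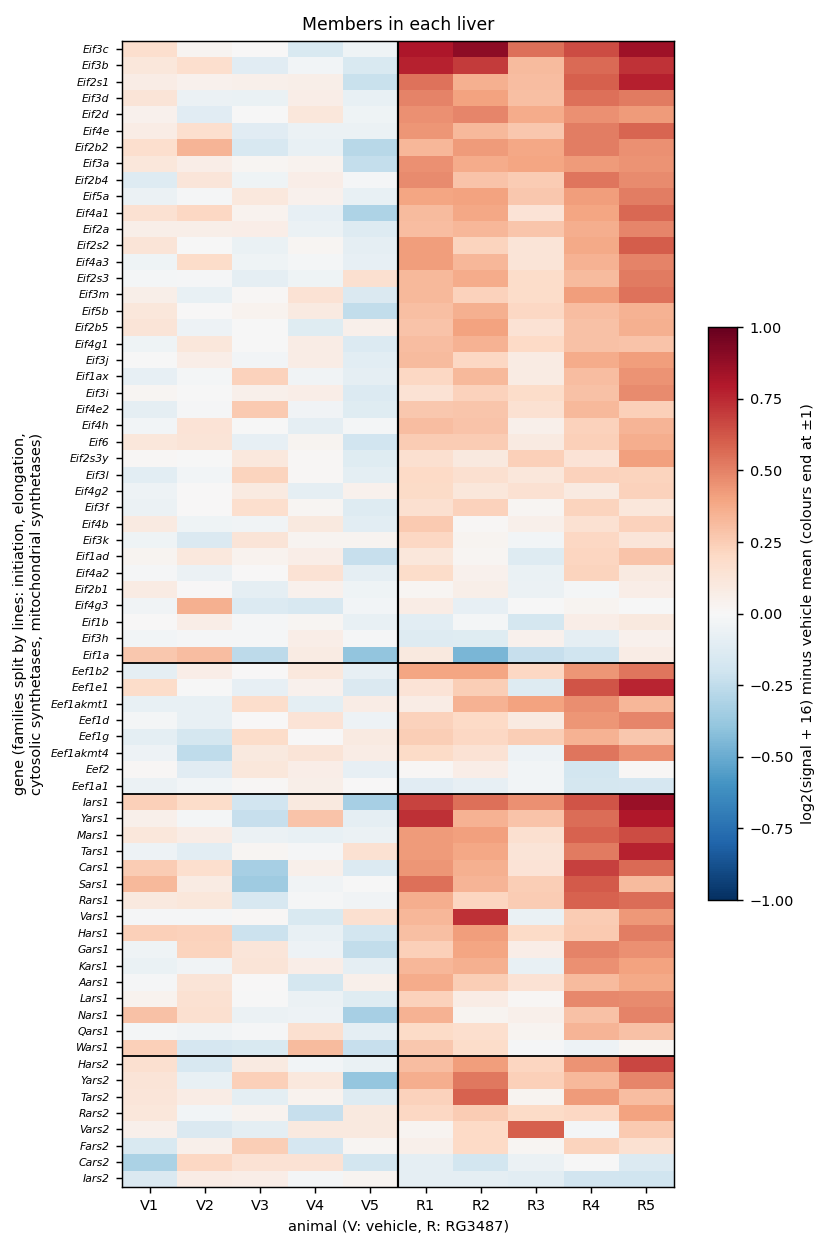
Each row is 1 of the 70 measured genes and each column 1 liver; colour gives log2(signal + 16) minus the mean of the 5 vehicle livers, with the families split by lines. The RG3487 columns are mostly red in every family, palest in animal 3, while rows such as Eef2, Eef1a1, Iars2 and Cars2 are not.

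The array values bear on all of these results. The mean signal lay between 330 and 332 on every array, the median rose from 88.6 ± 2.6 in vehicle to 94.4 ± 1.5 in RG3487 livers (SD, n = 5 each), and the highest signal went from 10784 ± 399 to 9771 ± 433 (exact two-sided permutation p = 0.00794 for the median and for the highest signal, the smallest that 252 regroupings allow). The bacterial and phage transcripts added as hybridization controls averaged 9.90 and 9.71 on the log2 scale and were lower in 18 of 18 probe sets with RG3487. The log2 difference between 3' and 5' probe sets, a sign of RNA quality, was 1.75 ± 0.11 and 1.61 ± 0.14 for actin and 0.263 ± 0.049 and 0.201 ± 0.033 for GAPDH in vehicle and RG3487 livers (exact two-sided permutation p = 0.127 and 0.0556), so both means were lower with RG3487. Of 5 measured hepatocyte markers 3 fell (Apoa1, Cps1 and Serpina1) and none rose, and their summed signal ran from 34775 to 37371 in vehicle and from 28982 to 34435 in RG3487 livers. Of 5 macrophage markers 1 fell (Cd163), of 4 endothelial markers 1 fell (Lyve1) and of 3 stellate markers 1 rose (Col1a1). Of all genes, 7.40% were called lower and 22.3% higher. The part of the array measures and of the markers in the results on translation genes was not tested. In whole liver, fewer cells of a type, less RNA per cell and an effect of array scaling on bright probe sets cannot be told apart.

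All 6 measured genes of the eIF2 group were called higher. Eif2s1, which encodes the alpha subunit whose phosphorylation slows initiation, read 468, 457, 460, 463 and 379 in vehicle livers 1 to 5 and 655, 572, 553, 679 and 774 in RG3487 livers 1 to 5. The groups did not overlap, and vehicle animal 5 lay below its group. The log2 change was 0.52 ± 0.09 (SE, n = 5 per group, adjusted p = 0.00216), a 1.43-fold rise. Eif2s2 and Eif2s3, the genes of the beta and gamma subunits, rose by 0.35 ± 0.08 and 0.34 ± 0.08, and the Y-linked copy Eif2s3y by 0.21 ± 0.07 (adjusted p = 0.0102, 0.00613 and 0.0457). The Eif2s3y call was lost without vehicle animal 1, 2, 4 or 5 or RG3487 animal 1, 3, 4 or 5 (adjusted p = 0.0563 to 0.103). Eif2s3 and Eif2s3y are close copies, so their probe sets may share signal. Eif2d and Eif2a, factors that can deliver initiator tRNA outside the eIF2 route, belong here by name. Eif2d read 304, 271, 294, 320 and 285 in vehicle livers and 410, 419, 385, 409 and 402 with RG3487. Its lowest treated liver lay well above its highest control liver (0.44 ± 0.06, adjusted p = 0.000451). Eif2a rose from 196 ± 13 to 255 ± 16 (SD; 0.36 ± 0.07, adjusted p = 0.00269).

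For eIF2B, the exchange factor that reloads eIF2 with GTP, 3 of 4 measured subunit genes rose. Eif2b4, which encodes the delta subunit, read 212, 255, 226, 246 and 232 in vehicle and 331, 289, 281, 345 and 330 in RG3487 livers. No vehicle liver reached the lowest RG3487 liver (0.40 ± 0.08, adjusted p = 0.00257). Eif2b2 and Eif2b5 rose by 0.42 ± 0.11 and 0.30 ± 0.07 (adjusted p = 0.0129 and 0.0117). The Eif2b5 call was lost on its dimmer probe set (0.17 ± 0.11, adjusted p = 0.234) and with quantile normalization (0.20, adjusted p = 0.0583). Eif2b1, for the alpha subunit and named after its values were seen, read 158 ± 8 and 160 ± 6 and changed by 0.01 ± 0.06 (adjusted p = 0.903), but was called higher with spike-in scaling (0.21, adjusted p = 0.0152).

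Of the eIF3 family's 11 measured subunit genes 7 rose, 0 fell and 4 did not pass. Eif3c read 546, 496, 486, 435 and 470 in vehicle and 860, 916, 717, 774 and 886 in RG3487 livers. The groups stood far apart, with a log2 change of 0.75 ± 0.08 (adjusted p = 0.000108), a 1.68-fold rise and the largest change of the 70 members. A dimmer probe set of Eif3c rose by only 0.38 ± 0.09 (adjusted p = 0.0099). Eif3b read 343, 357, 291, 310 and 282 in vehicle and 550, 523, 396, 474 and 530 in RG3487 livers. RG3487 animal 3 was the lowest of its group and still above every vehicle liver (0.61 ± 0.10, adjusted p = 0.000926). Eif3d, whose product binds the cap of certain messages, went from 392 ± 27 to 543 ± 39 (0.45 ± 0.07, adjusted p = 0.000786). Eif3a, the gene of the largest scaffold subunit, read 567, 548, 531, 537 and 440 in vehicle and 724, 679, 693, 707 and 721 in RG3487 livers. Its treated livers were tightly grouped and its vehicle animal 5 was low (0.42 ± 0.07, adjusted p = 0.00125). A dimmer probe set of Eif3a did not pass (0.25 ± 0.10, adjusted p = 0.0696). Eif3m, Eif3j and Eif3i rose by 0.34, 0.28 and 0.26. The members that did not pass were Eif3f (0.15 ± 0.07, but adjusted p = 0.0432 without vehicle animal 3), Eif3k (0.11 ± 0.07), Eif3h (-0.05 ± 0.05) and Eif3l (0.19 ± 0.07, adjusted p = 0.0526). Without vehicle animal 3 or RG3487 animal 3 Eif3l passed (adjusted p = 0.00846 and 0.0478), and so did its dimmer probe set (0.33 ± 0.06, adjusted p = 0.00222). Sorted by subunits that budding yeast also has, a grouping made after the values were seen, the 5 shared ones (Eif3a, Eif3b, Eif3c, Eif3i and Eif3j) all rose, as did 2 of the 6 others. The difference between these groups of subunits was not tested.

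Of the eIF4 group 7 of 10 genes rose and 0 fell. The 3 core genes of eIF4F were all among them. Eif4e, the cap-binding protein, read 730, 780, 638, 664 and 664 in vehicle and 945, 873, 841, 998 and 1043 in RG3487 livers. The groups did not overlap (0.43 ± 0.08, adjusted p = 0.00191). Eif4g1, the scaffold that joins cap and ribosome, went from 293 ± 21 to 361 ± 14 (0.29 ± 0.06, adjusted p = 0.0061), but a dimmer retained probe set of this gene changed by -0.05 ± 0.16. Eif4a1, the RNA helicase, rose by 0.36 ± 0.10 (adjusted p = 0.0196) while its paralogue Eif4a2 changed by 0.10 ± 0.07 (adjusted p = 0.295) on its bright probe set and by 0.46 ± 0.10 (adjusted p = 0.00653) on a dimmer one. Eif4a3, a helicase of the exon junction complex that shares the family name, rose by 0.34 ± 0.08, Eif4e2 by 0.25 ± 0.08 and Eif4h, a helicase cofactor, by 0.24 ± 0.07. Without RG3487 animal 5 the calls on Eif4h and Eif4a1 were lost (adjusted p = 0.0505 and 0.0511). The Eif4e2 call was lost without vehicle animal 1, 2, 4 or 5 or RG3487 animal 1, 2, 4 or 5 (adjusted p = 0.0514 to 0.0646). Eif4g2 changed by 0.16 ± 0.05 (adjusted p = 0.0326) and lost its call without vehicle animal 1, 2 or 4 or RG3487 animal 1 or 5 (adjusted p = 0.0565 to 0.0772). Of the other 2 probe sets of Eif4g2, 1 rose by 0.27 ± 0.07 (adjusted p = 0.015) and 1 changed by -0.04 ± 0.06. Eif4b changed by 0.14 ± 0.07 and Eif4g3 by 0.00 ± 0.10, and neither passed, but a dimmer probe set of Eif4b rose by 0.33 ± 0.09 (adjusted p = 0.0204). A dimmer probe set of Eif4h did not pass (0.34 ± 0.13, adjusted p = 0.0731). Eif4e3 was left out as dim, at a signal of 20 to 45 on every array.

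**Figure D2:**
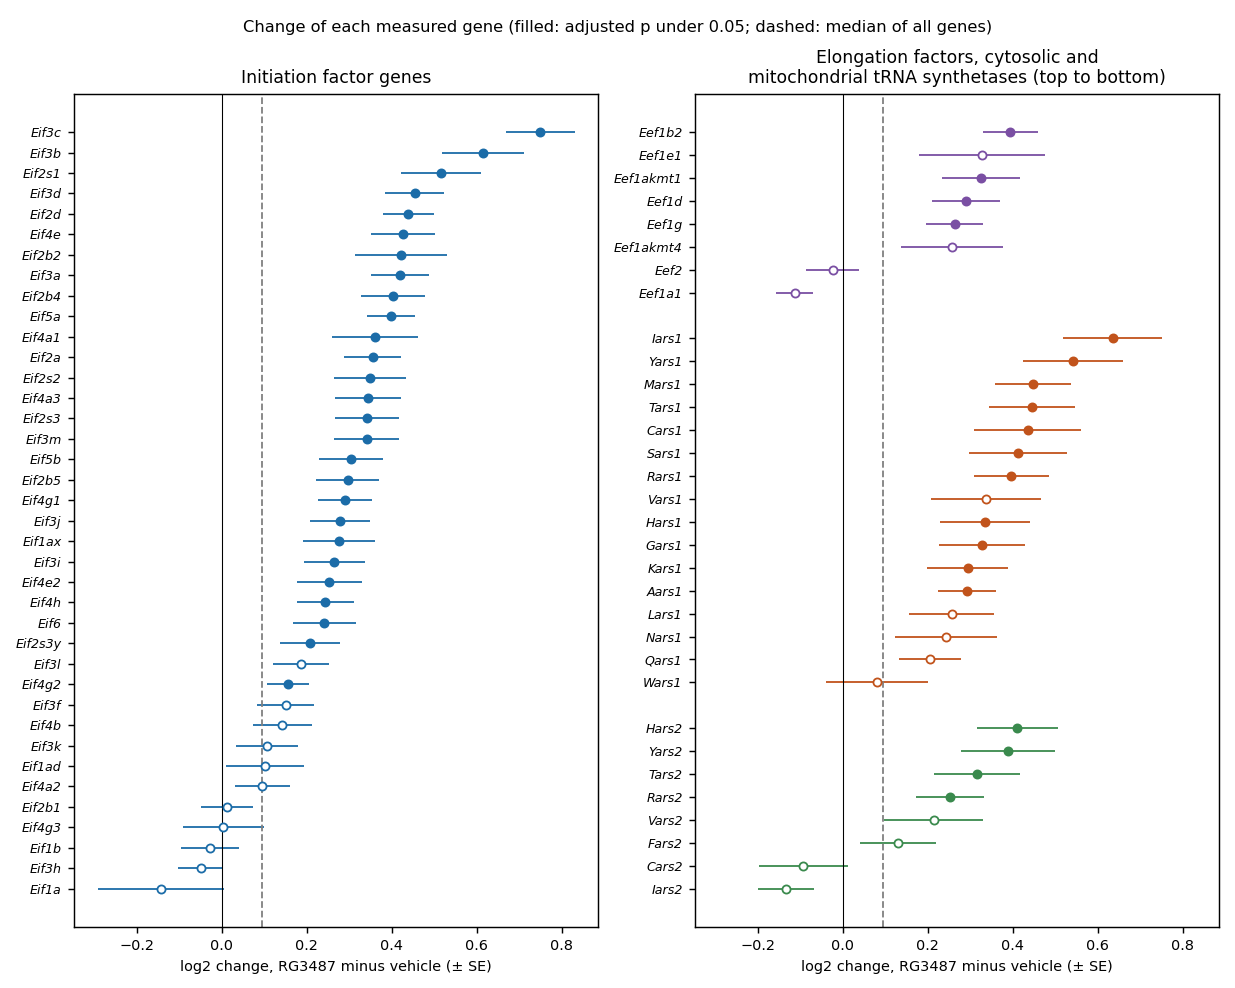
Points give the log2 change (RG3487 minus vehicle) of each measured gene with its standard error, filled where limma's adjusted p was under 0.05; the dashed line is the median of all genes, 0.09. Eif3c (0.75) and Iars1 (0.64) stand at the top of their families, and Eif1a (-0.14) and Iars2 (-0.13) at the bottom.

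Among the remaining initiation factors, Eif5a, Eif5b and Eif6 rose and most of the eIF1 group did not pass. Eif5a, which relieves stalled ribosomes and carries the amino acid hypusine, read 1255, 1298, 1407, 1352 and 1241 in vehicle and 1723, 1734, 1585, 1751 and 1872 in RG3487 livers. Even the lowest treated liver was above all controls (0.40 ± 0.06, adjusted p = 0.000555). Eif5b, the GTPase that joins the ribosomal subunits, went from 205 ± 21 to 256 ± 11 (0.30 ± 0.08, adjusted p = 0.0112), although 2 dimmer probe sets of it changed by only 0.14 and 0.01 and did not pass. Eif6, which keeps the large subunit from joining too early, rose by 0.24 ± 0.07 (adjusted p = 0.031), a call lost without vehicle animal 3 or 5 or RG3487 animal 1, 2, 4 or 5 (adjusted p = 0.0564 to 0.076). In the eIF1 group 1 of 4 genes rose: Eif1ax, a scanning factor, changed by 0.28 ± 0.09 (adjusted p = 0.0313). That call was lost without vehicle animal 1, 2, 4 or 5 or RG3487 animal 2, 4 or 5 (adjusted p = 0.0582 to 0.0767). Eif1a had 4 retained probe sets, with changes from -0.15 to 0.03, and none passed.

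Of 8 measured genes of the elongation factor family 4 rose and 0 fell. The 8 include Eef1akmt1, Eef1akmt4 and Eef1e1, which are not elongation factors. The 3 genes of eEF1B, the complex that reloads eEF1A with GTP, all rose, and Eef1a1 and Eef2 did not pass. The difference between them was not tested. Eef1b2 read 1585, 1765, 1694, 1818 and 1595 in vehicle and 2226, 2221, 1954, 2300 and 2455 in RG3487 livers. The groups were well apart (0.39 ± 0.07, adjusted p = 0.00133). Eef1g read 1621, 1533, 1968, 1733 and 1843 in vehicle and 2058, 2002, 2060, 2214 and 2089 in RG3487 livers, where the highest control came close to the lowest treated liver without overlap (0.26 ± 0.07, adjusted p = 0.0125). Eef1d rose by 0.29 ± 0.08 (adjusted p = 0.0197). With each array centred on its median the calls on Eef1g and Eef1d were lost (adjusted p = 0.0928 and 0.0737), as was that on Eef1d with quantile normalization (adjusted p = 0.0625). The factors that follow were named after their values were seen. Eef1a1 read 6315, 6458, 6616, 6851 and 6595 in vehicle and 6072, 6208, 6453, 5794 and 5826 in RG3487 livers. The groups overlapped through RG3487 animal 3, and the change was -0.11 ± 0.04 (adjusted p = 0.0655). Without that animal Eef1a1 was called lower (adjusted p = 0.0305), as it was with each array centred on its median (adjusted p = 0.029). Its probe set reads several near-identical transcripts by its name, and a second one changed by -0.08 ± 0.05. Eef2 read 2197 ± 148 and 2160 ± 141 and changed by -0.02 ± 0.06 (adjusted p = 0.798), but was called higher with spike-in scaling (0.17, adjusted p = 0.0412). Eef1akmt1, a lysine methyltransferase of eEF1A rather than a factor, rose by 0.32 ± 0.09 (adjusted p = 0.021). Its call was lost with each array centred on its median (adjusted p = 0.0816) and with quantile normalization (adjusted p = 0.0617). Eef1akmt4, likewise a methyltransferase, changed by 0.26 ± 0.12 (adjusted p = 0.126). It passed without RG3487 animal 3 (adjusted p = 0.0449). Without RG3487 animal 4 the calls on Eef1akmt1 and Eef1d were lost (adjusted p = 0.0535 and 0.0501), which left 2 of the 8 genes called, and without RG3487 animal 3 1 of the 8 was called lower. Eef1a2, the muscle and nerve form of eEF1A, and Eef1akmt2 were left out as dim.

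**Figure D3:**
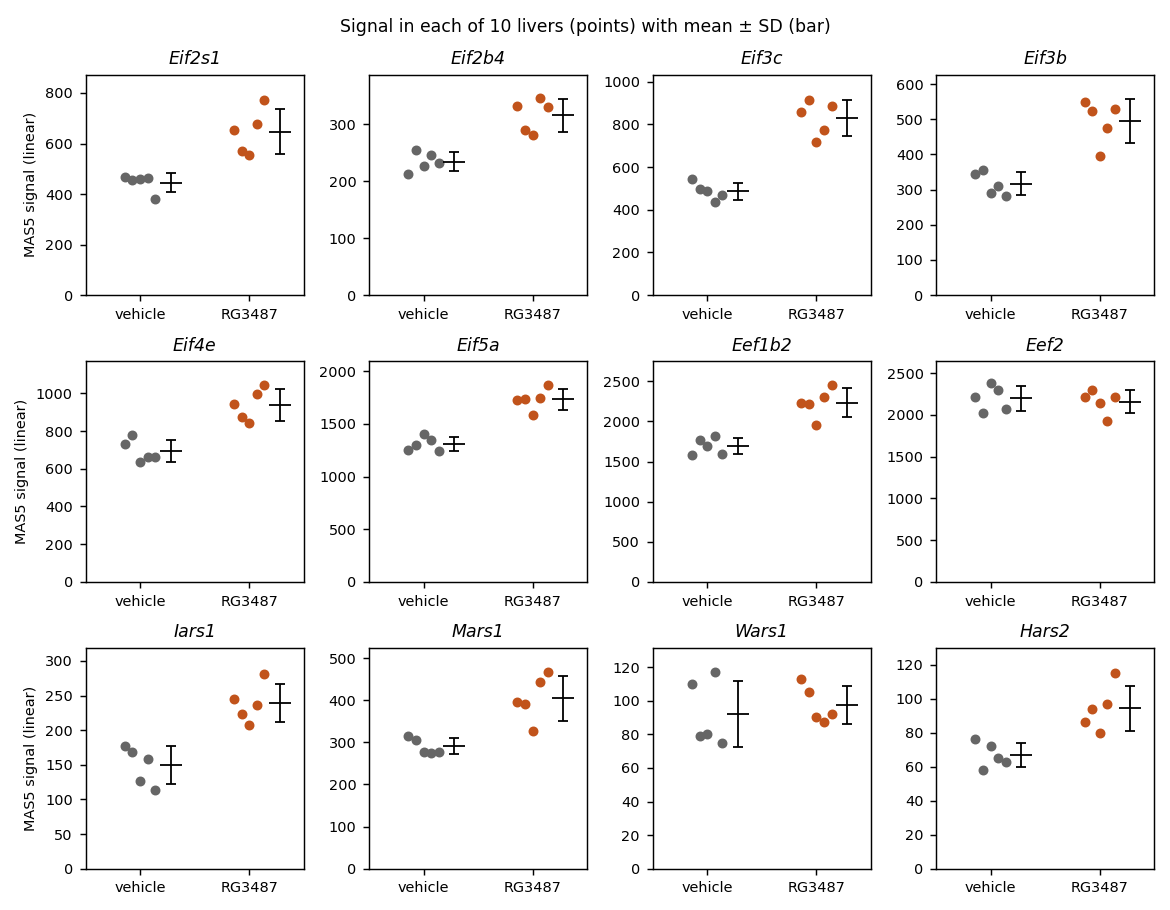
Points are the linear MAS5 signal of 12 genes in each liver, with the mean and SD of 5 animals beside them; all axes start at 0. The groups are apart for Eif3c, Eif2s1 and Eef1b2 and overlap for Eef2 and Wars1.

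All 16 measured cytosolic synthetase genes had a change above 0, from 0.08 to 0.64, and 11 were called higher. Iars1, for isoleucine, read 177, 169, 127, 159 and 114 in vehicle and 245, 223, 208, 237 and 281 in RG3487 livers. The ranges did not meet, although the vehicle livers were spread widely (0.64 ± 0.12, adjusted p = 0.00228), and this was a 1.55-fold rise. Yars1, for tyrosine, read 270, 256, 219, 320 and 243 in vehicle and 442, 334, 319, 390 and 463 in RG3487 livers. A single vehicle liver, animal 4, overlapped the treated range by the smallest margin (0.54 ± 0.12, adjusted p = 0.00568). Mars1, for methionine, went from 291 ± 19 to 405 ± 54 (0.45 ± 0.09, adjusted p = 0.00359) and Rars1, for arginine, from 267 ± 21 to 358 ± 45 (0.40 ± 0.09, adjusted p = 0.00653), both without overlap. Tars1, Sars1 and Aars1, for threonine, serine and alanine, rose by 0.45, 0.41 and 0.29. Cars1 (0.44), Gars1 (0.33), Hars1 (0.34) and Kars1 (0.29) were closer to the threshold. Cars1 lost its call without vehicle animal 5 or RG3487 animal 4 or 5 (adjusted p = 0.0514 to 0.0564). Gars1 lost it without vehicle animal 1, 4 or 5 or RG3487 animal 2, 4 or 5 (adjusted p = 0.0581 to 0.0737), and Hars1 without vehicle animal 3, 4 or 5 or RG3487 animal 1, 2 or 5 (adjusted p = 0.0525 to 0.0805). Kars1 lost its call without vehicle animal 1, 2, 4 or 5 or RG3487 animal 1, 2, 4 or 5 (adjusted p = 0.0538 to 0.0902), and Sars1 without RG3487 animal 4 (adjusted p = 0.0509). Dimmer probe sets of Mars1 (0.30 ± 0.11), Gars1 (0.27 ± 0.12) and Hars1 (0.31 ± 0.11) did not pass (adjusted p = 0.0516, 0.0963 and 0.055), and the others of Cars1 changed by 0.16 ± 0.10 (adjusted p = 0.259) and 0.57 ± 0.13 (adjusted p = 0.00771). The count of called cytosolic synthetases was 7 without vehicle animal 5, RG3487 animal 4 or RG3487 animal 5. Those that did not pass were Qars1 (0.20 ± 0.07), Vars1 (0.34 ± 0.13), Lars1 (0.26 ± 0.10), Nars1 (0.24 ± 0.12) and Wars1, for tryptophan (92.2 ± 19.7 and 97.4 ± 11.1, 0.08 ± 0.12, adjusted p = 0.645). Without RG3487 animal 3 Qars1, Vars1 and Lars1 passed (adjusted p = 0.0133 to 0.0327), as Qars1 did without vehicle animal 4 (adjusted p = 0.0195).

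Several cytosolic synthetases reside together in the multi-synthetase complex. Of its 6 measured synthetases among the members 4 rose (Iars1, Mars1, Rars1 and Kars1), and of the 10 outside it 7 rose. The scaffold genes Aimp1 and Aimp2 rose by 0.58 ± 0.15 and 0.41 ± 0.10 (adjusted p = 0.0116 and 0.0118), while the third scaffold gene, Eef1e1, changed by 0.33 ± 0.15 and passed only without RG3487 animal 3 (adjusted p = 0.0234). Eprs1, which encodes the joined glutamate and proline enzymes of the same complex and lies outside the symbol rule, changed by 0.07 ± 0.11. Farsb and Farsa, the subunits of the phenylalanine enzyme and likewise outside the rule, rose by 0.41 ± 0.08 and 0.32 ± 0.09 (adjusted p = 0.00239 and 0.0272). The Farsa call was lost without vehicle animal 2, 3, 4 or 5 or RG3487 animal 1, 2, 4 or 5 (adjusted p = 0.0523 to 0.0623).

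Promoter windows from RefSeq (GRCr8), 250 bases before to 50 after the transcript start, were matched by symbol for 65 of the 70 measured members. The letters TGATGNAA, the composite element read by C/EBP and ATF factors, were looked for on both strands. They were found in 7 of 14 matched cytosolic synthetases, in 1 of 36 initiation factors, in 0 of 7 elongation factor genes and in 0 of 8 mitochondrial synthetases, against 4.16% of all 27457 genes with a window. Of the 7 synthetases, 6 were called higher (Iars1, Tars1, Mars1, Aars1, Cars1 and Yars1) and Nars1 was not. Of the 9 matched synthetases called higher, 6 held it, and of the 5 that did not pass, 1 did. The stretches of 120 bases before the start are shown for the members that hold the element there, with its letters in capitals, since this element was found in more of the cytosolic synthetases than of the other families. The difference between families was not tested. In Cars1 and Yars1 it lies after the start and is not shown. Aars1 held a further match, beginning at base 10 after the start, which is likewise not shown.
Iars1 (chr17:15193653-15193772, minus strand): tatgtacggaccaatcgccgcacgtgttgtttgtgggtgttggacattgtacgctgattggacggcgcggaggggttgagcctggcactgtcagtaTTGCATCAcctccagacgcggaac
Tars1 (chr2:62114803-62114922, minus strand): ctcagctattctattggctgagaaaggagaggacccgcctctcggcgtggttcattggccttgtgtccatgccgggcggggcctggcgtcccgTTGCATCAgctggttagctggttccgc
Mars1 (chr7:65023754-65023873, minus strand): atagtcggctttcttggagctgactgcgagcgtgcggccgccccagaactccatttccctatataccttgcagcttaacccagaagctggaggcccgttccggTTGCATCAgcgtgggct
Aars1 (chr19:55908362-55908481, plus strand): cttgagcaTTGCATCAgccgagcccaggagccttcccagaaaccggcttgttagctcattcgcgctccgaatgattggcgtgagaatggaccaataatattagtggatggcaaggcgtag
Nars1 (chr18:60275783-60275902, minus strand): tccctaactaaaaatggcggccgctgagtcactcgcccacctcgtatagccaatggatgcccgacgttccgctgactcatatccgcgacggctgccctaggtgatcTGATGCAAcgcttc
Eif2s2 (chr3:163855571-163855690, minus strand): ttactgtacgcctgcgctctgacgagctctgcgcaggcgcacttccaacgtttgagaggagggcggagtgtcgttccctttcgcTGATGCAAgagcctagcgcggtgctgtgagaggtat
The element began 24 bases before the start in Iars1, 27 in Tars1, 17 in Mars1, 112 in Aars1, 14 in Nars1 and 36 in Eif2s2. A match describes letters only and is not evidence that a factor was bound there.

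The other 3 motifs searched were also read on both strands. For every motif, the share of all genes is over the 27457 genes with a window, which were not limited to genes measured here. The members are thus set beside an unlike set of genes, and the difference was not tested. CACGTG, the E-box read by MYC and related factors, was found in 14 of 65 members and 7.08% of all genes, in 9 of the 43 matched members called higher and in 5 of the 22 that did not pass. TGACNNNGC, the core of the antioxidant response element, was found in 14 of 65 and 13.1% of all genes, in 8 of the 43 and 6 of the 22. It overlapped an E-box in Aars1, Eef2 and Eif5a. TGACGTCA, the cyclic AMP response element, was found in Eef2 alone, against 2.00% of all genes. Eif4e, which rose, held the E-box letters 237 and 80 bases before its start, and Eef2, which did not pass, held them 76 bases before and the cyclic AMP letters 31 bases before. Both are shown for that contrast, with these letters in capitals.
Eif4e (chr2:229740503-229740752, plus strand): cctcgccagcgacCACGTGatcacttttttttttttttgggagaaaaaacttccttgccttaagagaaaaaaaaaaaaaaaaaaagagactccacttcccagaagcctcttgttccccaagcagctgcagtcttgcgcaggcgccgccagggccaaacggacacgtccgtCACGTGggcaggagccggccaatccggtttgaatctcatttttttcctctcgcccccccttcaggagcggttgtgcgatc
Eef2 (chr7:9189239-9189358, minus strand): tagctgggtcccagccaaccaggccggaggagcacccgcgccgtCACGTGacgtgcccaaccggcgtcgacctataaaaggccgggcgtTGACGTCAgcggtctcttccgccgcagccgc

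Mitochondrial synthetase genes were dim: 5 of 13 were left out by the signal filter (Aars2, Ears2, Nars2, Sars2 and Wars2). Of the other 8, 4 rose and 0 fell. Hars2, for histidine, read 76, 58, 72, 65 and 63 in vehicle and 86, 94, 80, 97 and 115 in RG3487 livers. The groups did not overlap (0.41 ± 0.10, adjusted p = 0.00853), and its other retained probe set rose too (0.35 ± 0.12, adjusted p = 0.0413). Yars2 read 206, 177, 223, 202 and 139 in vehicle and 245, 277, 224, 239 and 269 in RG3487 livers, with vehicle animal 3 only just below RG3487 animal 3 (0.39 ± 0.11, adjusted p = 0.0211). Its call was lost without RG3487 animal 2 or 5 (adjusted p = 0.0516 and 0.0521). Rars2 (0.25 ± 0.08) and Tars2 (0.32 ± 0.10) passed at adjusted p = 0.0343 and 0.0372, and a dimmer probe set of Tars2 did not pass (0.24 ± 0.13, adjusted p = 0.186). Rars2 lost its call without vehicle animal 2 or 4 or RG3487 animal 1, 2, 4 or 5 (adjusted p = 0.0509 to 0.0824) and Tars2 without vehicle animal 2, 3, 4 or 5 or RG3487 animal 2, 4 or 5 (adjusted p = 0.0501 to 0.0847). Leaving out vehicle animal 2 or 4 or RG3487 animal 4 brought the count of 4 down to 2, and leaving out RG3487 animal 2 or 5 to 1. Iars2, named after its values were seen, went from 138 ± 9.4 to 124 ± 5.5 (-0.13 ± 0.07, adjusted p = 0.152), whereas the cytosolic Iars1 rose. Iars2 was called lower with quantile normalization (adjusted p = 0.0352) or with arrays centred on their median (0.0466). Vars2 (0.21 ± 0.12), Fars2 (0.13 ± 0.09) and Cars2 (-0.09 ± 0.11) did not pass.

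Beyond the families, a list of 56 other translation genes had 49 measured members, of which 17 rose and 2 fell. These were 34.7% and 4.08% of the measured list, against 22.3% and 7.40% of all genes. The median log2 change was 0.11 against 0.09 over all genes. Among termination, recycling and rescue genes, the cytosolic Gspt1, Etf1 and Abce1 rose, while Hbs1l and Pelo (-0.03 and -0.35) and the mitochondrial Mrrf, Mtrf1l and Gfm2 (0.07, 0.21 and 0.15) did not pass. Without vehicle animal 5 Pelo was called lower (adjusted p = 0.0216). Gspt1, which encodes the release factor eRF3, read 442, 513, 501, 482 and 449 in vehicle and 692, 678, 575, 728 and 756 in RG3487 livers. The groups did not overlap (0.50 ± 0.08, adjusted p = 0.000854). The release factor gene Etf1 and the recycling factor gene Abce1 rose by 0.32 ± 0.08 and 0.42 ± 0.08 (adjusted p = 0.0111 and 0.00247). Denr, which helps to restart ribosomes, rose by 0.43 ± 0.07 (adjusted p = 0.00161). Among mitochondrial translation factors 3 of 7 rose, Mtif2 (0.49 ± 0.09, adjusted p = 0.00192), Tufm (0.23 ± 0.05) and Tsfm (0.19 ± 0.06). The Tsfm call was lost without vehicle animal 1, 3 or 5 or any 1 of the RG3487 animals (adjusted p = 0.0504 to 0.0886). Gatc, a subunit of the enzyme that makes mitochondrial glutaminyl-tRNA, rose by 0.46 ± 0.08 (adjusted p = 0.00202), but another probe set of it changed by 0.00. Of the 3 measured subunit genes of this enzyme 2 rose. Qrsl1 rose by 0.33 ± 0.10 (adjusted p = 0.0272), and Gatb did not pass (0.26 ± 0.14, adjusted p = 0.191). The Qrsl1 call was lost without vehicle animal 2, 4 or 5 or RG3487 animal 2, 4 or 5 (adjusted p = 0.0541 to 0.0669).

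Of the inhibitors and sensors of initiation, none of the 4 measured eIF2 kinases passed, with changes from -0.12 (Eif2ak1) to 0.16 (Eif2ak4), and Eif2ak3, the kinase of the endoplasmic reticulum, changed by -0.11 ± 0.12. Of the 3 genes for 4E-binding proteins, which hold eIF4E inactive, Eif4ebp2 was called lower (898 ± 32 to 796 ± 55, -0.17 ± 0.06, adjusted p = 0.0461), while Eif4ebp1 changed by 0.07 ± 0.08 and was called higher with spike-in scaling (0.27, adjusted p = 0.0186). With that scaling Eif4ebp2 changed by 0.02 and was not called. The Eif4ebp2 call was lost without any 1 animal except RG3487 animal 1 (adjusted p = 0.0584 to 0.0982). Mtor and Rptor, of the growth pathway that acts on these proteins, changed by 0.11 and 0.14 and did not pass. The 2 probe sets of Rps6kb1, a kinase of that pathway, disagreed: the brighter changed by -0.07 ± 0.07 (adjusted p = 0.492) and the other rose by 0.28 ± 0.07 (adjusted p = 0.0163). Rheb, the activator of the pathway, rose by 0.20 ± 0.06, a call lost without vehicle animal 1 or RG3487 animal 4 or 5 (adjusted p = 0.0516 to 0.0549).

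Atf4 encodes the transcription factor known to raise many cytosolic synthetase genes when eIF2 is phosphorylated. It read 913, 926, 821, 787 and 726 in vehicle and 784, 688, 757, 906 and 1017 in RG3487 livers. The groups overlapped widely and the change was -0.01 ± 0.10 (adjusted p = 0.931). Message level does not show how much Atf4 protein was made. Of 7 genes of the ATF4 stress programme (Atf4, Chac1, Ddit3, Nupr1, Ppp1r15a, Sesn2 and Trib3), 5 fell and 0 rose, where 7.40% of all genes were called lower and 22.3% higher. Apart from Atf4, the genes were chosen for this list after their values were seen. The count is therefore no test against the shares of all genes. Ddit3 read 69, 75, 62, 79 and 70 in vehicle and 49, 49, 54, 53 and 45 in RG3487 livers, lower in every treated animal (-0.40 ± 0.08, adjusted p = 0.00351). Chac1 read 178, 117, 58, 68 and 49 in vehicle and 30, 30, 60, 17 and 37 in RG3487 livers (-1.04 ± 0.29, adjusted p = 0.0193). Its groups overlapped through RG3487 animal 3, its treated livers were dim, and vehicle animals 1 and 2 were the highest. Ppp1r15a, which directs the phosphatase of eIF2, changed by -0.32 ± 0.11 (adjusted p = 0.0409). That last call was lost without vehicle animal 1, 2, 3 or 4 or RG3487 animal 1, 2, 3 or 4 (adjusted p = 0.0529 to 0.0952). The Sesn2 call was lost without vehicle animal 1, 3 or 5 (adjusted p = 0.0511 to 0.0621).

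The size of the shift differed between treated animals. Taken as the median over the 70 members of each liver's difference from the vehicle mean, it was 0.29, 0.27, 0.14, 0.33 and 0.42 on the log2 scale in RG3487 animals 1 to 5, and 65, 63, 54, 61 and 66 of the 70 members lay above the vehicle mean. RG3487 animal 3 had the lowest median of its group in each of the 4 families. Over all genes the same medians were 0.10, 0.09, 0.07, 0.11 and 0.11, and animal 3 was lowest there as well. Among vehicle livers the member median ran from 0.00 to 0.02 in animals 1 to 4 and was -0.09 in animal 5, where 15 of 70 members lay above the mean. Animal 5 was also the lowest vehicle liver over all genes (-0.04). The actin 3' to 5' difference of RG3487 animals 1 to 5 was 1.60, 1.66, 1.80, 1.55 and 1.44, in the inverse order of their member medians. For GAPDH it was 0.209, 0.229, 0.234, 0.165 and 0.168, where animals 4 and 5 broke that order. Vehicle animal 2 had the lowest actin difference among vehicle livers (1.55), yet its member median (0.00) lay below those of vehicle animals 1 and 4. Vehicle animal 5 had the highest such difference of all livers for actin (1.82) and for GAPDH (0.307). The animals' values are a description, and the part of RNA quality and of array scaling in them was not tested.

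**Figure D4:**
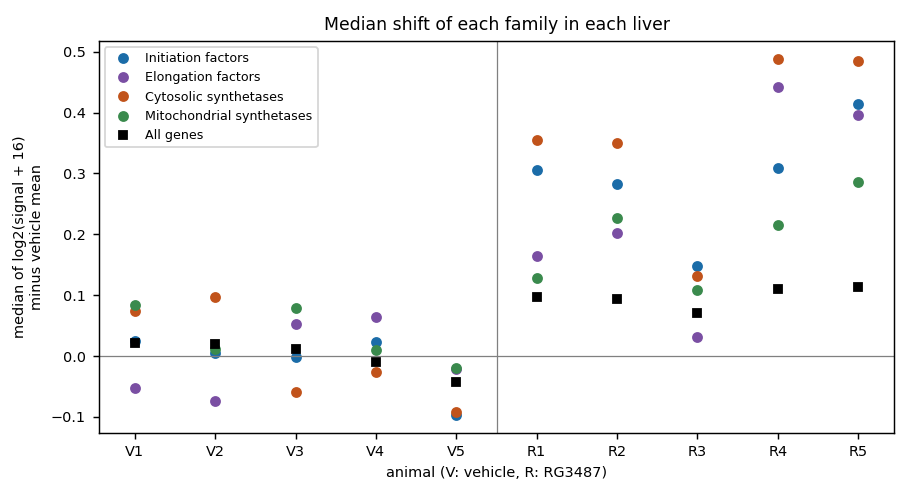
For each liver, points give the median over each family's genes of log2(signal + 16) minus the vehicle mean, with all genes as squares. RG3487 animals 1, 2, 4 and 5 lie above animal 3 in each family, and all-gene medians stay between -0.04 and 0.11.

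How many members passed depended on the scaling of the arrays, as it did for genes at large. With quantile normalization 20 initiation factors, 2 elongation factor genes, 6 cytosolic and 1 mitochondrial synthetases were called higher, and with each array centred on its median the counts were 20, 1, 8 and 2. With spike-in scaling, which sets the hybridization controls equal and assumes that equal amounts were added, they were 35, 7, 15 and 6. Of all genes, 1018 of 7726 were called higher with quantile normalization, and of 7727, 992 with centring and 4538 with spike-in scaling, as the median change of all genes moved from 0.09 to 0.02, 0.02 and 0.29. The family medians minus that of all genes were 0.19 for initiation factors, 0.18 for elongation factors, 0.24 for cytosolic and 0.14 for mitochondrial synthetases as deposited, and 0.18, 0.19, 0.25 and 0.15 with quantile normalization. Members called lower under these scalings were Iars2, with quantile normalization and with centring, and Eef1a1 with centring. Of the members named by rule, Eif1ax, Eif4h, Eif6, Eef1d, Eef1akmt1, Gars1, Hars1, Rars2 and Tars2 lost their calls with quantile normalization and with centring. Cars1, Yars2 and Eif2b5 lost theirs with quantile normalization but not centring, and Eef1g and Eif4g2 with centring but not quantile normalization. The other translation list lay 0.01 above all genes as deposited.

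**Figure D5:**
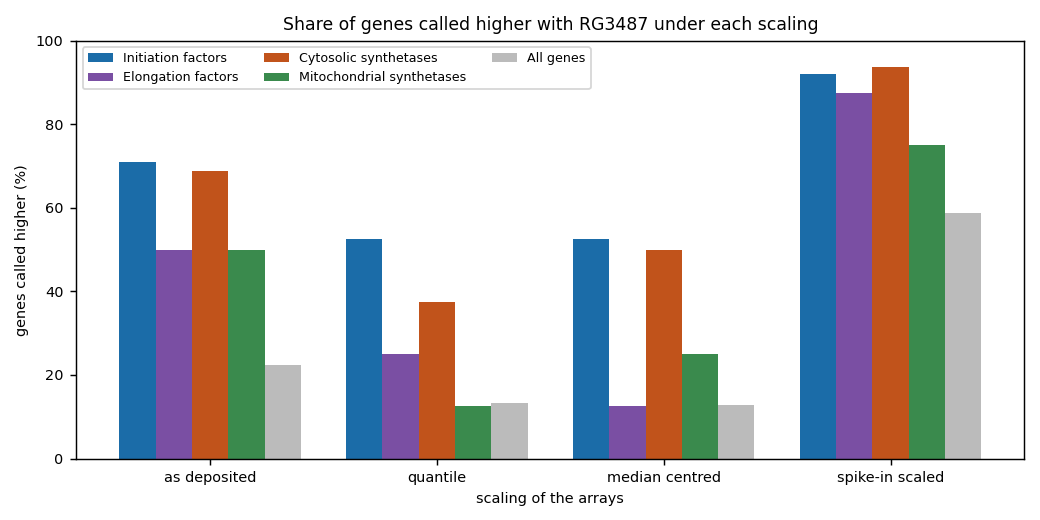
Bars give the percent of measured genes called higher with RG3487 in each family and in all genes, under 4 scalings of the arrays. As deposited the shares are 71.1% for initiation factors, 50% for the elongation factor family, 68.8% for cytosolic and 50% for mitochondrial synthetases, and 22.3% for all genes. With quantile normalization the bar of mitochondrial synthetases is close to that of all genes.

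Genes read by several probe sets mostly moved the same way. Of 19 members with more than 1 retained probe set, the sign of the change differed in 3, Eif1a, Eif4g1 and Eif4g2. In 15 of the 19 the probe sets differed in call or in sign. Counted by probe set, 54 of 94 were called higher and 0 lower, where 27.7% of all 11894 were called, 20.5% higher and 7.16% lower.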

How the data were processed

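RNA from 10 rat livers was hybridized to Affymetrix arrays, 1 per animal. The deposited intensity values are linear MAS5 signals, per the submitters' processing notes. Which MAS5 version and target intensity were used is not given in the sources used here. Values from the deposited table were read unchanged, and log2(signal + 16) was taken. Of 15899 probe sets, 12562 had 1 gene symbol, 332 several, 2965 none and 40 were controls; 12525 symbols were checked through Entrez identifiers, 2 through accessions, 35 were kept and 1 changed. The dimmest 25% by mean were left out, leaving 11894 probe sets and 7727 genes. RG3487 minus vehicle was fitted with limma 3.58.1 (R 4.3.3, lmFit and eBayes with a mean-variance trend). Benjamini-Hochberg adjustment was over all 11894 retained probe sets, before 1 probe set was picked per gene. Tables and figures were made with Python 3.11.15, pandas 2.3.3, numpy 2.4.6 and matplotlib 3.10.9. In simulated data 200 of 11894 probe sets were changed. There the fit found 29.9% of 1.25-fold, 76.3% of 1.5-fold and 86.8% of 2-fold changes, and 4.68% of its calls were false. In the real data 27.7% of probe sets were called, which makes the threshold on p less strict. The simulated rates therefore need not hold for the real data. A gene that did not pass still cannot be taken as unchanged. Fold changes are on the log2(signal + 16) scale, which understates changes of dim genes, and the number of arrays limits precision. Signals of different probe sets were not compared.

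Members and lists were chosen with earlier results of these data known. Named by rule were the 4 genes of smallest p per family, members changed by 0.50 or more, members whose probe sets differ, the leading gene of each initiation factor group, and the leading 6 genes of the other translation list with Atf4, Eif2ak3, Eif2ak4 and Eif4ebp1. All other genes given with values were chosen after their values were seen. Nothing states how the animals' replicate numbers relate across groups. Same-numbered animals' deviations correlated at 0.03, 0.17, 0.01, 0.08 and -0.04, so the numbers were not taken as pairs. Alternatives were the pseudocount, array scaling, signal filter, variance model, array weights, replicate block, choice of probe set and leaving out each animal.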

Additional observations from a re-analysis of the deposited data

Results flagged for a closer look

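Among 124 groups of 5 values checked, 5 had a lowest or highest value set apart from the other 4 by more than 0.71 of the group's range (Dixon's criterion), and chance gives about 1 in 20. Vehicle animal 5 was low for Eif2s1, at 379 against 457 to 468 (gap 0.887 of the range), and for Eif3a, at 440 against 531 to 567 (0.741). Vehicle animal 3 was high for Eif1ax, at 284 against 224 to 236 (0.781), and vehicle animal 4 was high for Eif3h, at 1239 against 1160 to 1174 (0.818). Among array measures, the log2 difference of 3' and 5' actin probe sets was low in vehicle animal 2, at 1.55 against 1.76 to 1.82 (0.752). Gaps were computed on the log2(signal + 16) scale for genes. Without vehicle animal 5, Eif2s1 and Eif3a remained called higher.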

How the results depend on the processing

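No family count of members called higher fell to 0 under any alternative run. With quantile normalization the genes called higher were 2 elongation factors, 6 cytosolic and 1 mitochondrial synthetases and 1018 of all genes, with 1 mitochondrial synthetase lower (783 of all genes lower). With each array centred on its median, 1 elongation factor and 2 mitochondrial synthetases were higher, 1 of each family was lower, and the all-gene counts were 992 up and 867 down. Under spike-in scaling 7 elongation factors, 28 other translation genes and 4538 of all genes were higher, and 0 other translation genes and 250 of all genes were lower. There Eef2 changed by 0.17, Eif3h by 0.15 and Eif4ebp2 by 0.022, each opposite in sign to the deposited scale. Eif4g1 changed by -0.052 on its second probe set, and with second probe sets 7 cytosolic synthetases were higher. Of other translation genes, 1 was lower with no filter, with the dimmest 50% left out, without the variance trend and with array weights. Of elongation factors, 1 was lower with the dimmest 50% left out and with array weights. With the replicate number as a block, 22 initiation factors, 4 elongation factors, 9 cytosolic and 4 mitochondrial synthetases and 1481 of all genes were higher, and 546 of all genes and 0 other translation genes lower. The cause of these differences was not tested. Leaving out 1 animal, the counts called higher ran from 20 to 28 for initiation factors, 2 to 6 for elongation factors, 7 to 14 for cytosolic synthetases, 1 to 4 for mitochondrial synthetases, 13 to 17 for other translation genes and 1290 to 1802 for all genes. The counts called lower ran from 0 to 0 for initiation factors, cytosolic and mitochondrial synthetases, 0 to 1 for elongation factors, 0 to 3 for other translation genes and 471 to 591 for all genes. Of 42 named genes called, 28 kept their call without any 1 animal and 21 under every alternative.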
